A study of Homo sapiens with 4 samples.

Results

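The deposited gene table of this study holds a block of human genes with a single peak of N1-methyladenosine (m1A) and a non-m1A block. For each gene it lists how brightly its RNA was read before any antibody was used. The table holds 5210 genes with one m1A peak, called one-peak genes here, and 1224 genes listed as non-m1A, 6434 in all. A gene with several peaks would stand in neither block, so a share of one-peak genes is not a share of methylated genes. The comparison here takes every gene of both blocks and only the input columns, input A and input B. It asks how brightly transcripts with one called peak and transcripts listed without one were read in the starting RNA, across level and across gene families. Of the 4 arrays of the study, the 2 input arrays are used. Per the labels, the cells were HepG2, an established line of hepatic tumour origin, cultured in DMEM without further treatment. Their total RNA went through repeated poly(A) enrichment, and the input was kept out of the immunodepletion. The values are deposited intensities on a linear scale, meaning the brightness of a gene's probes on an Affymetrix array. The column letters were not matched to replicates 1 and 2, and the labels do not say whether the replicates were separate cultures.

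m1A is an adenosine with a methyl group on the edge that normally pairs with uridine, and it is abundant in tRNA and rRNA. The TRMT6 and TRMT61A complex writes it in the cytosol, TRMT10C with HSD17B10 and TRMT61B write it in mitochondria, and ALKBH3 can remove it. In messenger RNA it is known mainly from antibody pull-down, where a peak is a stretch of transcript enriched by an anti-m1A antibody. The sources used here do not say how the peaks behind the gene table were called.

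Markers of the labelled cell type were checked first. Of 28 listed secreted liver proteins 2 were in the table, both non-m1A and both dim. The apolipoprotein gene APOC1 stood at 6.70 in input A and 10.8 in input B, and APOE at 32.8 and 31.0. Of 20 listed liver transcription factors and enzymes 4 were present. The urea cycle enzyme gene CPS1 was bright, at 3403 and 3101, and FOXA1 stood at 85.0 and 128, both one-peak. The non-m1A TFR2 was at 19.5 and 24.6. The gene table itself names no cell line. A gene missing from both blocks has no value here, so its absence does not tell whether it was expressed. The dim values of APOC1, APOE and TFR2 go against the liver origin in the labels, while that of CPS1 does not. The mesenchymal marker VIM reached 6569 and 5851 and COL1A1 53.9 and 49.8, as 2 of 10 listed. Of 14 leukocyte markers 1 was present, CD68 at 30.1 and 42.4, and of 9 endothelial and erythroid markers 0 were. Their part in the results below was not tested.

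One-peak transcripts were the brighter ones. Their median intensity was 215.9 in input A and 215.7 in input B, against 44.5 and 42.8 in the non-m1A genes. The quartiles of the one-peak genes were 103.6 and 524 in input A and 102.9 and 532 in input B. Those of the non-m1A genes were 17.7 and 121 in input A and 16.8 and 115 in input B. The blocks overlapped, but their low ends were far apart. The dimmest one-peak values were 26.6 and 27.5, and the dimmest non-m1A values 0.12 and 0.03. The bright ends reached 13338 and 13032 in the one-peak block and 7507 and 7282 in the non-m1A block.

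Set against each other on the log2 scale, the block medians differed by 2.28 in input A and 2.33 in input B, one-peak minus non-m1A. The mean was 2.31 ± 0.04 (SD, n = 2 input columns), a 4.95-fold higher median intensity. Of the one-peak genes, 57.5% ± 0.14 were brighter than the median of all 6434 genes, against 18.1% ± 0.58 of the non-m1A genes and 50% of all genes by construction (SD, n = 2). If any one-peak gene was paired with any non-m1A gene, the one-peak gene was brighter in 82.5% ± 0.42 of pairs. In turn, 14.7% ± 0.29 of the non-m1A genes exceeded the one-peak median. Both blocks stand under the same 2 column names, so no samples differ between them and no test over samples can be made. Genes are not replicates, and no p-value over genes is given. Probes of different genes differ in brightness at equal amounts of RNA and the values are not per length. These are therefore differences between distributions of intensity, not between molar amounts.

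**Figure D1:**
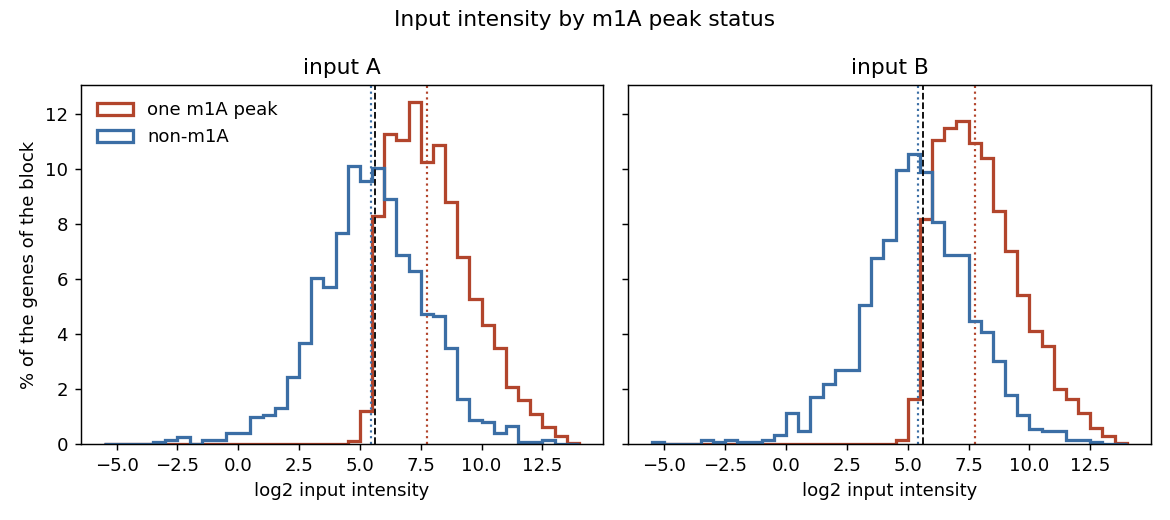
Distribution of log2 input intensity over the 5210 one-peak genes (red) and the 1224 non-m1A genes (blue) in input A (left) and input B (right), as the percent of each block per bin. Dotted lines mark the block medians. The dashed line marks an intensity of 48.9, which the brighter input of every one-peak gene reached. In a single input, one-peak values run down to 26.6 in input A and 27.5 in input B, and non-m1A values to 0.12 and 0.03.

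The one-peak block ended at a sharp lower edge. In every one-peak gene the brighter of the 2 inputs was at least 48.9. Between 40 and 48 there were 0 one-peak genes, between 48 and 50 there were 28, and between 50 and 52 there were 55. Non-m1A genes ran through the edge without a step, with 20 between 46 and 48, 18 between 48 and 50 and 15 between 50 and 52. The one-peak genes nearest to the edge were ZNF239 at 48.9 and 29.5, CELSR1 at 43.2 and 48.9, TUBB3 at 48.9 and 44.5, ZNF292 at 48.9 and 28.0 and EXOG at 48.9 and 46.6. Of the non-m1A genes, 613 (50.1%) lay under the edge and 611 over it, and 562 had a mean input below that of the dimmest one-peak gene, 38.5. No filter of this kind is stated in the sources used here. The blocks also differed in how their values were written. Of the one-peak intensities 90.4% had more than 2 decimals, up to 8, while 0 of the 2448 non-m1A intensities did. Whether both blocks were summarised from probes in the same way was not tested.

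Because a lower limit in one block alone widens any difference in level, the comparison was repeated over the 5821 genes whose brighter input reached 48.9, a limit chosen after the values were seen. One-peak genes were still brighter there, by less. The non-m1A medians became 121 in input A and 115 in input B, against 215.9 and 215.7 in the one-peak genes. The difference of medians was 0.83 in input A and 0.91 in input B, on average 0.87 ± 0.05 (log2, SD, n = 2), or 1.83-fold. Of the one-peak genes 52.2% ± 0.04 were brighter than the median of all genes over the edge, against 31.2% ± 0.35 of the non-m1A genes, and the one-peak gene was brighter in 65.1% ± 0.86 of pairs. A non-m1A gene exceeded the one-peak median in 29.4% ± 0.58 of cases. Cutting both blocks at the same limit brings their low quantiles together. The difference was 0.22 ± 0.10 between the 5% quantiles of the blocks, 0.61 ± 0.07 between the lower quartiles, 1.04 ± 0.10 between the upper quartiles and 1.41 ± 0.13 between the 95% quantiles. With all genes it ran from 3.93 ± 0.25 at the 5% quantile to 2.22 ± 0.00 at the 95% quantile. Its size thus depended on the genes under the edge at both ends, and more at the dim end.

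Read the other way, the share of one-peak genes went up with input level. One-peak genes made up 81% of the table. When genes were cut into deciles by level, the share in the dimmest decile was 7.61% ± 0.22, in the second 75.3% ± 0.88 and in the third 85.2% ± 0.33 (SD, n = 2 input columns). It was 89.0% ± 0.44 in the fifth, 91.9% ± 0.66 in the eighth and 96.3% ± 0.11 in the brightest. The low share of the dimmest decile went with the edge. Among genes over the edge, of which 89.5% were one-peak genes, the dimmest decile held 78.7% ± 1.94, the second 84.3% ± 0.85, the fifth 88.4% ± 0.85 and the brightest 96.6% ± 0.12. Neighbouring deciles in the middle of that range, such as the fourth at 89.3% ± 0.00 and the fifth, did not run in order. The 20 brightest genes were all one-peak, as were 97 of the brightest 100 and 965 of the brightest 1000.

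**Figure D2:**
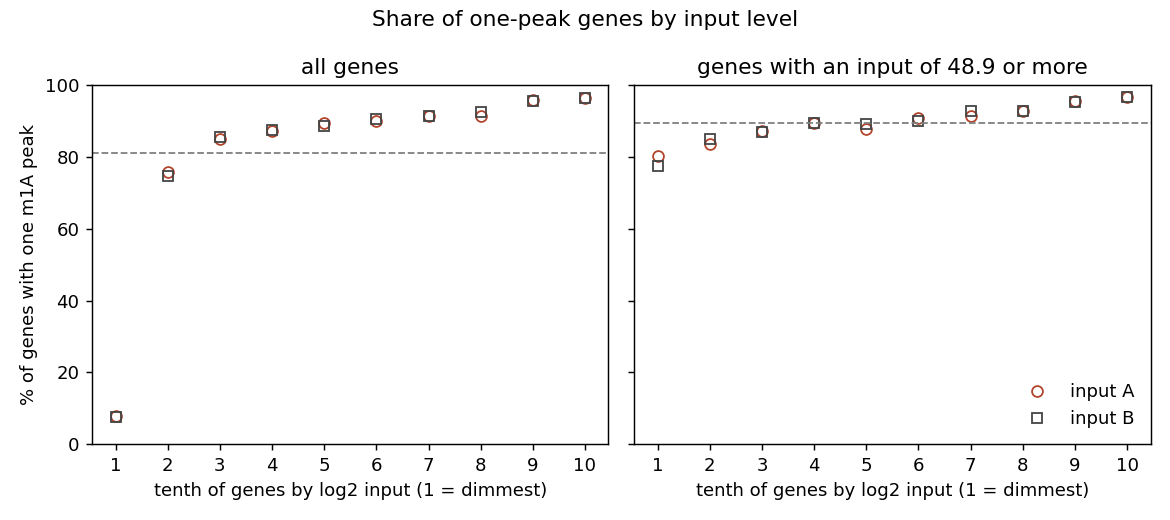
Percent of genes with one m1A peak in each decile of genes ordered by log2 input, from dimmest (1) to brightest (10), for input A (circles) and input B (squares). The left panel holds all 6434 genes (dashed line, 81%) and runs from 7.61% to 96.3%, and the right panel holds the genes with an input of 48.9 or more (dashed line, 89.5%) and runs from 78.7% to 96.6%.

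The brightest one-peak transcripts encoded parts of the ribosome and general metabolic proteins. RPLP0, a protein of the ribosomal stalk, led the table at 13338 and 13032. RPS21 (12244 and 12013), RPS27 (11674 and 11335), RPL19 (10596 and 11072) and GAPDH, a glycolytic enzyme gene (10715 and 10782), followed. RPL12, RPL29, RPS7 and RPS3 stood between 9466 and 10835 in either input. The brightest non-m1A transcripts included ribosomal, mitochondrial and translation genes too. RPL21 led at 7507 and 7282, ahead of the peroxide-reducing PRDX4 (6008 and 5119) and of EIF3E, a subunit of an initiation factor (4727 and 4443). ID3, an inhibitor of helix-loop-helix transcription factors, was at 3498 and 3300. The respiratory chain genes NDUFB11 (2259 and 2695) and UQCRFS1 (2345 and 2291), the histone gene H2AFX (1980 and 2521) and the placental hormone gene INSL4 (2220 and 2164) were also among the 10 brightest, with WDR83OS and C12orf57. The inputs differed more in some of these genes than in others, most in H2AFX, by -0.35 on the log2 scale (input A minus input B).

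At the dim end the lowest genes of the blocks lay far apart, though the dimmest decile by level held 37 one-peak beside 607 non-m1A genes. The 10 dimmest one-peak genes by mean log2 input had one input near 50 and the other near 30. The edge sets this pattern, since with a brighter input of at least 48.9 only a dim second input gives a low mean. HIVEP1, a zinc finger transcription factor gene, stood at 49.7 and 27.5, the oxidoreductase gene MICAL1 at 26.6 and 52.6, and HEY1, a Notch target in many tissues, at 51.8 and 28.9. ZNF292, ZNF239, TNFAIP2, GM2A, APOBR, FAM91A1 and E2F6 were alike, from 28.05 to 52.02. In the 10 dimmest non-m1A genes neither input exceeded 5.47. ZNF134 was at 0.15 and 0.13, the F-box gene FBXO36 at 0.42 and 0.09, and LRP4, a receptor of the nerve-muscle junction, at 4 and 0.10. CDON, DZIP3, TNFRSF13C, ALG1L, FDXACB1, SLC27A3 and the clotting factor gene F8 lay between 0.03 and 5.47. An input below 1 was listed in 26 non-m1A genes and one below 10 in 220, and in 0 one-peak genes.

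The brightest gene of each block with a RefSeq promoter shows what the start of such a gene looks like. The 250 bases before the annotated start are printed 5′ to 3′ on the gene's own strand, with every CG pair in capitals. RPLP0 lies on the minus strand (GRCh38.p14, chr12:120201112-120201361) and RPL21 on the plus strand (GRCh38.p14, chr13:27251308-27251557).
RPLP0: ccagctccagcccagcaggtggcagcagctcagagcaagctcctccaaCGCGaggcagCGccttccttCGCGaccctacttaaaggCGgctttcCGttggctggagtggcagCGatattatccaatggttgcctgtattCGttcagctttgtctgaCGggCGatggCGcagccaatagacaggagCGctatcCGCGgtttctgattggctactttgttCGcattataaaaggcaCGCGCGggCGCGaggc
RPL21: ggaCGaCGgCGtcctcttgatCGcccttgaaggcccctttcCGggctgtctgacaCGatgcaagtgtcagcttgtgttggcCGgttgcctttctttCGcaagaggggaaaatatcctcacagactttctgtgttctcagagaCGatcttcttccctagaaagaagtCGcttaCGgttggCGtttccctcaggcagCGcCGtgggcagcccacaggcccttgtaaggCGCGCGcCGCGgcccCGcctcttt
The one-peak RPLP0 window held 21 CG pairs and 58.4% G and C, and the non-m1A RPL21 window 20 and 58.8%. Over all RefSeq windows of this length the median was 11 CG pairs and 58% G and C, and 93.6% held at least 1 CG. Both genes were therefore above that median in CG pairs.

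Promoters of the blocks were then compared, using the first listed RefSeq promoter of a symbol (250 bases before to 50 after the start). One was found for 4330 one-peak genes (83.1%) and 981 non-m1A genes (80.1%). The median promoter was 65.3% G and C with 27 CG pairs in one-peak genes, and 63.7% with 24 in non-m1A genes, against 58.3% and 14 over all 27305 RefSeq promoters. The CG count relative to that expected from the C and G content had a median of 0.863 in one-peak and 0.809 in non-m1A genes. Promoters with under 0.4 of the expected CG, as tissue-specific genes often have, were 5.22% of one-peak and 15.7% of non-m1A promoters, and 10.5% of non-m1A promoters over the edge. Within quartiles of genes by input level, from dim to bright, the median G and C share was higher in one-peak genes by 3, 2.67, 0.333 and 2.67 percentage points. The relative CG count was higher in one-peak genes in the dimmer quartiles, at 0.851 against 0.777 in the dimmest and 0.859 against 0.836 in the second. It was lower in one-peak genes in the brighter quartiles, at 0.865 against 0.877 in the third and 0.869 against 0.917 in the brightest. Over the edge the block medians were close, at 27 CG pairs and 0.863 in one-peak genes and 26 and 0.843 in non-m1A genes. Gene span had a median of 27865 bases in one-peak and 28017 in non-m1A genes. From the dimmest to the brightest quartile it was 41502, 37056, 30026 and 16188 bases in one-peak genes, each shorter than the one before. In non-m1A genes it was 24153, 39708, 39262 and 20916 bases, with no such order. G and C content also affects probe brightness, and its part in the difference in level was not tested.

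Gene families were compared by 44 lists, most matched by symbol prefix, so that a few members do not share the list's function. The integrin list, for example, holds ITGB3BP, which encodes a centromere protein, and the CD list holds CD3EAP, which encodes a subunit of RNA polymerase I. At least 1 list took in 1891 of the 6434 genes (29.4%). Of the 38 lists with 5 or more genes, 22 held a higher share of one-peak genes than the whole table (81%) and 16 a lower one. Among genes over the edge, 19 lay above the 89.5% of all such genes and 19 below. A difference in level could be taken in 28 lists with at least 3 genes in each block. One-peak genes had the higher median in both inputs in 27 of them, with differences from -0.13 to 5.48 on the log2 scale and a median of 1.95. The difference over all genes was 2.31, and over the 4543 genes in no list 2.10. Over the edge, one-peak genes were higher in both inputs in 19 of 24 lists and lower in both in 3, with a median difference of 0.75. These are descriptions, since families share sequence and their probes may cross-hybridize.

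**Figure D3:**
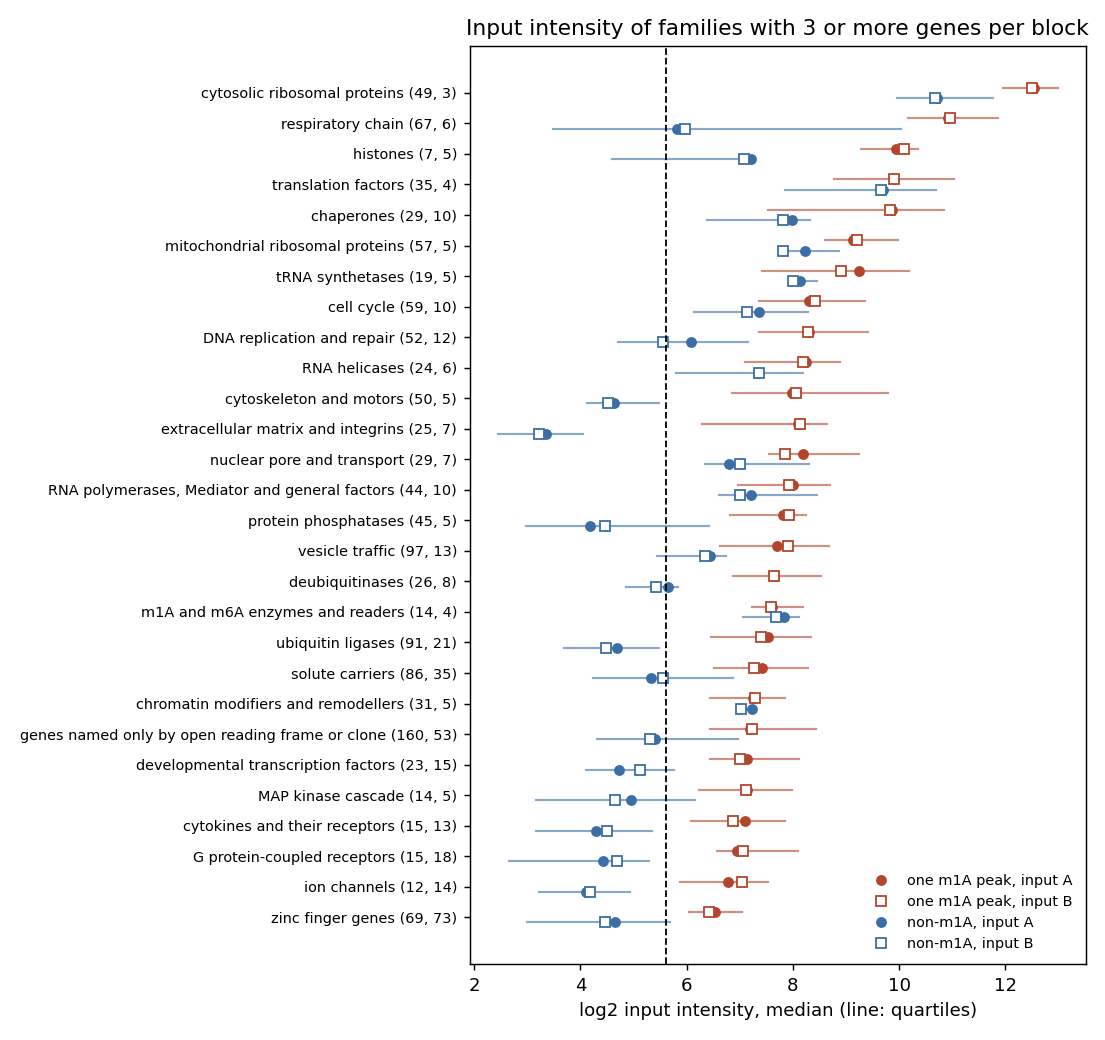
Median log2 input intensity of one-peak genes (red) and non-m1A genes (blue) in the 28 families with at least 3 genes in each block, in input A (filled circles) and input B (open squares), with lines from the lower to the upper quartile of the mean of both inputs. Numbers give the one-peak and non-m1A genes, and the dashed line marks 48.9. One-peak medians lie to the right in all families but the m1A and m6A enzymes, and many non-m1A medians lie left of the dashed line.

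Genes of protein synthesis were bright and mostly one-peak, as bright genes of any kind were. Above the median of genes over the edge, 93.6% of all genes were one-peak, against 94.0% of cytosolic ribosomal, 92.9% of mitochondrial ribosomal, 91.2% of translation factor and 75% of tRNA synthetase genes. Among the cytosolic ribosomal proteins 49 of 52 were one-peak genes (94.2%), with a median of 5971 in input A and 5802 in input B. The non-m1A members were RPL21, RPL36AL at 1672 and 1647 and RPL22L1 at 710 and 514, the last 2 being close copies of other ribosomal protein genes. Within the one-peak members the range was wide, and RPL4 stood lowest at 61.5 and 40.9, a gene chosen after its values were seen. Mitochondrial ribosomal proteins were one-peak in 57 of 62 (91.9%). Their medians were 562 and 591 in the one-peak genes and 299.7 and 226 in the 5 non-m1A genes, among them MRPL47 at 1200 and 1062. Translation factors were one-peak in 35 of 39. The non-m1A ones were EIF3E, EIF3I at 1202 and 1180, EIF2A at 467 and 435 and the dim EIF4E3, whose mean input was 32.3. Their difference in level was 0.40 ± 0.04, but -0.31 ± 0.02 over the edge, where EIF4E3 drops out (log2, SD, n = 2). The tRNA synthetases, which charge tRNAs with amino acids, were one-peak in 19 of 24 (79.2%), led by TARS at 3738 and 2819. FARSB led the non-m1A synthetases at 679 and 816.

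Genes of the respiratory chain and central metabolism were also bright. Above the median of genes over the edge, where 93.6% of all genes were one-peak, their shares were 97.0% of 67 respiratory chain, 95.8% of 24 glycolysis and TCA cycle, 13 of 13 cholesterol synthesis and 12 of 12 mitochondrial import genes. Respiratory chain genes were one-peak in 67 of 73 (91.8%), with medians of 1953 and 2001. The 6 non-m1A members ran from bright to dim. NDUFB11 and UQCRFS1 were as bright as the one-peak members, and ATP5S lay between at 93.2 and 105. COX7A1, NDUFA4L2 and COX6B2, versions known from restricted tissues or low oxygen, had mean inputs of 4.58, 9.94 and 19.8. The difference in level was accordingly 5.48 ± 0.07 with all members and -0.20 ± 0.01 over the edge, where 3 non-m1A genes remain. Glycolysis and TCA cycle genes were one-peak in 29 of 30, the exception being SUCLA2, a subunit of succinyl-CoA ligase, at 359 and 268. Cholesterol synthesis genes were one-peak in 18 of 19, with HSD17B7 the exception at 24.4 and 16.5. Mitochondrial import genes were one-peak in 13 of 14, all but TIMM10B at 172 and 160.

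Genes of messenger RNA processing were all one-peak in the splicing list. RNA helicases and the transcription machinery lay near or below the share of all genes. All 46 splicing factor and hnRNP genes were one-peak, from SNRPD2 at 4366 and 4628 to a dimmest member with a mean input of 75.5, and SRSF1, near their median, stood at 939 and 846. Of these, 40 lay above the median of genes over the edge, where 93.6% of all genes were one-peak, and no test of this count was made. RNA helicases were one-peak in 24 of 30 (80%), against 81% of the whole table. Over the edge 85.7% of them were, against 89.5% of all genes there. The transcription machinery list was one-peak in 44 of 54 (81.5%), near the table's share. All 54 lay over the edge, where 89.5% of all genes were one-peak. Its parts differed, in a split made after the values were seen. The 14 RNA polymerase subunits and the 11 TAF genes were all one-peak, against that 89.5%. These parts are small, and their counts were not tested. Of the 18 Mediator subunits, which link activators to RNA polymerase II, 7 were non-m1A (MED1, MED8, MED12, MED14, MED20, MED30 and MED31), and so were 3 of 11 general factor genes. MED20 stood at 134 and 122 and MED28, one-peak, at 254 and 249.5. The Mediator genes also lay lower, with 7 of 18 brighter than the median gene of the table, against 11 of 14 polymerase subunits.

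Zinc finger genes, many of them DNA-binding repressors of the KRAB family, were a large list with a low share. Of 142, 69 were one-peak and 73 non-m1A (48.6% one-peak). Their medians were 92.6 and 85.3 in one-peak genes, against 25.2 and 22.1 in non-m1A genes, and 18 of 142 were brighter than the median of all genes. The brightest one-peak member was ZNF207 at 948 and 732, and the brightest non-m1A member ZNF440 at 369 and 554. Of the 73 non-m1A members 22 lay over the edge. There, 69 of 91 were one-peak (75.8%), still below 89.5%. The share was 75.6% of 78 genes below the median of genes over the edge and 76.9% of 13 above it, against 85.4% and 93.6% of all genes. The difference in level was 1.92 ± 0.05 with all members and 0.22 ± 0.03 over the edge (log2, SD, n = 2). Developmental transcription factors were one-peak in 23 of 38 (60.5%) and in 23 of 30 over the edge (76.7%). HOXC6 led the one-peak members at 687 and 634 and FOXM1, a regulator of mitotic genes, the non-m1A members at 113 and 150. Of 16 HOX genes 7 were non-m1A, among them HOXB4 at 26.6 and 35.2.

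Receptors, channels, cytokines and carriers held fewer one-peak genes than the table, while CD antigens, cytoskeleton and immediate early genes held more. The edge removes non-m1A genes alone, so a share over it cannot be lower than before, and it is read against the 89.5% of all genes there. CD antigens were one-peak in 19 of 21, and in 19 of 19 over the edge, with medians of 743 and 740 in the one-peak genes and CD55 the brightest at 4224 and 3518. G protein-coupled receptors were one-peak in 15 of 33 (45.5%) but in 15 of 18 over the edge (83.3%). The chemokine receptor gene CXCR4 led the one-peak members at 608 and 485, and the non-m1A serotonin receptor gene HTR1D stood at 17.7 and 24.9. Ion channels were one-peak in 12 of 26 (46.2%), 12 of 15 over the edge, with KCNK1 at 672 and 522 and the non-m1A TRPM7 at 96.5 and 78.7. Cytokine and receptor genes were one-peak in 15 of 28 (53.6%), 15 of 18 over the edge. The interferon receptor gene IFNGR2 was at 572 and 525, and the non-m1A IL17RB at 113 and 90.6. Solute carriers were one-peak in 86 of 121 (71.1%) and 86 of 103 over the edge (83.5%). Over the edge, all 4 of these lists stayed below 89.5%. Below the median of genes over the edge, 85.4% of all genes were one-peak. There the shares were 76.9% of 13 receptor, 76.9% of 13 channel, 78.6% of 14 cytokine and 78.7% of 61 carrier genes. Above it, where 93.6% of all genes were one-peak, they were 100% of 5, 2 and 4 genes and 90.5% of 42, in that order. Most of these counts are small, and none was tested. The brightest solute carrier was SLC25A5, a mitochondrial ADP/ATP carrier, at 6995 and 7601. The brightest non-m1A carrier was the zinc exporter SLC30A1 at 677 and 558. Extracellular matrix and integrin genes were one-peak in 25 of 32, and over the edge in 25 of 26, the non-m1A gene there being ITGB3BP at 1136 and 1013. Cytoskeleton and motor genes were one-peak in 50 of 55, led by the tubulin gene TUBA1B at 5987 and 5488, and over the edge in 50 of 51. Immediate early genes, switched on quickly by growth signals, were one-peak in 16 of 16, with JUNB at 233 and 257 near their median.

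**Figure D4:**
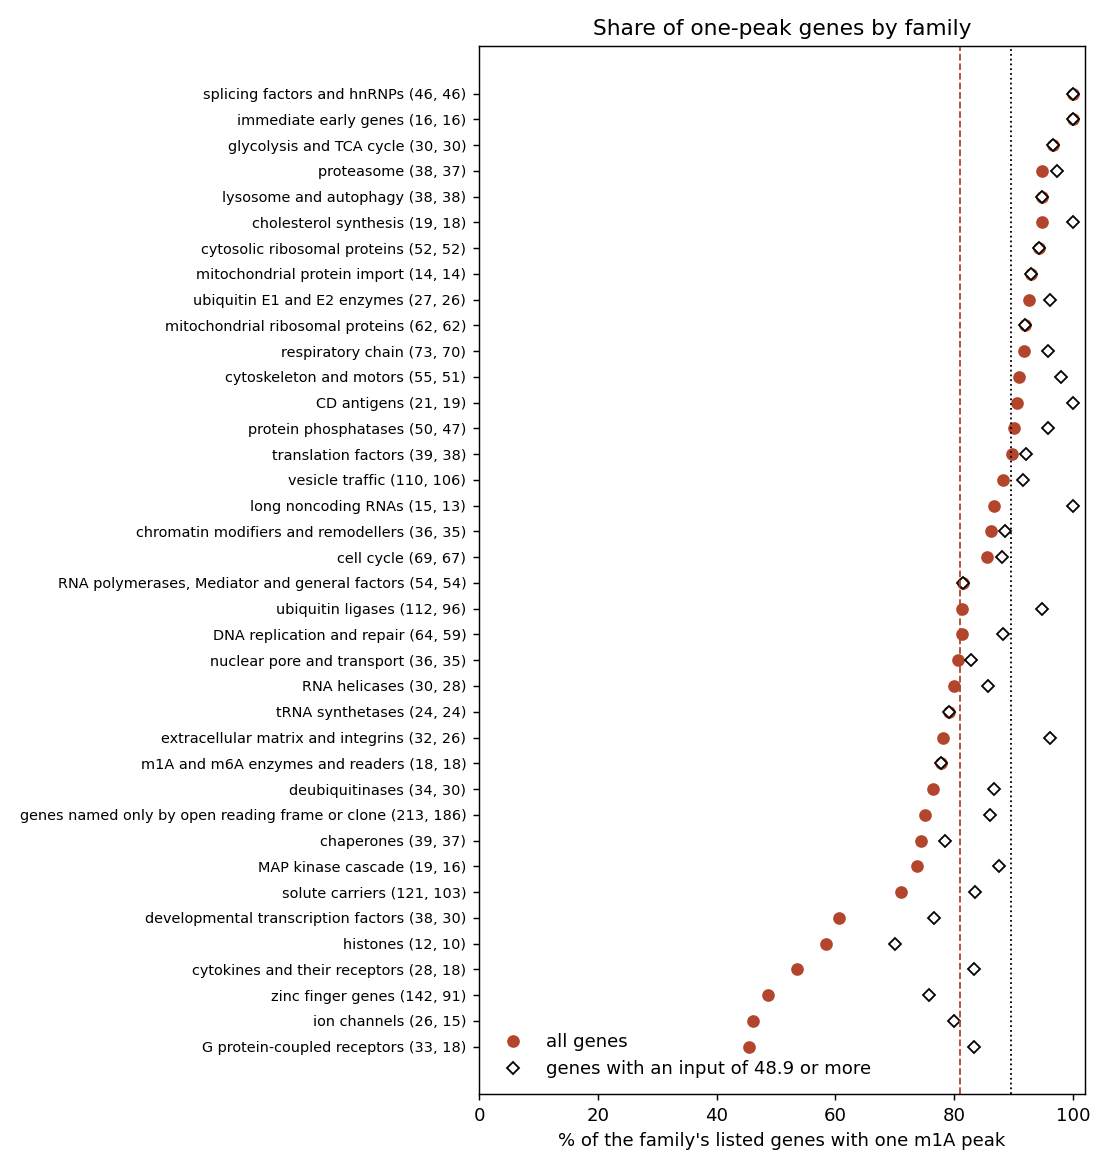
Percent of genes with one m1A peak in the 38 families with at least 5 genes, over all genes (red circles) and over genes with an input of 48.9 or more (open diamonds). Numbers give the genes behind each point in that order. The dashed line marks 81% and the dotted line 89.5%. The 6 families at the bottom lie between 45.5% and 60.5% with all genes and between 70.0% and 83.3% with the brighter ones.

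Across protein quality control, the cell cycle and histones, several lists lay near the share of all genes. Shares of one-peak genes ran from 58.3% in histones to 94.7% in the proteasome, against 81% of the whole table. Over the edge the share of all genes was 89.5%. Above the median of genes over the edge, 97.1% of 34 proteasome genes were one-peak, against 93.6% of all genes. Proteasome genes were one-peak in 36 of 38, with PSMA7 at 3862 and 4113, and the non-m1A members were the catalytic subunit genes PSMB5 (1903 and 2009) and PSMB8 (36.5 and 36.8), which acts in immunoproteasomes. Ubiquitin ligases were one-peak in 91 of 112 (81.2%), and in 91 of 96 over the edge (94.8%). All 6 non-m1A RNF genes and all 3 non-m1A TRIM genes, subsets picked after the values were seen, lay under it. Chaperones were bright but below the table's share, with 29 of 39 one-peak (74.4%) and 29 of 37 over the edge (78.4%). HSP90AB1 led at 5496 and 5849. Non-m1A chaperones included 6 of 19 DNAJ genes, such as DNAJC15 at 469 and 513, and 4 of 14 HSP genes, while the 6 chaperonin genes were all one-peak, in a split made after the values were seen. Nuclear pore and transport genes were one-peak in 29 of 36 (80.6%), near the table's share, and in 82.9% over the edge. NUP205 was their brightest non-m1A member at 415 and 435. Cell cycle genes were one-peak in 59 of 69 (85.5%), and in 88.1% over the edge, near the share of all genes there. Of their 13 CENP centromere genes 5 were non-m1A, CENPW at 1168 and 1217 among them. Over the edge 72.7% of 11 CENP genes were one-peak, a small count that was not tested. DNA replication and repair genes were one-peak in 52 of 64 (81.2%), and in 88.1% over the edge, both near the shares of all genes. XRCC6, a subunit of the Ku break sensor, was at 3471 and 3228, and the non-m1A RAD54B at 214 and 210. Histone genes were one-peak in 7 of 12 (58.3%), and in 7 of 10 over the edge (70%), which are small counts. H2AFZ stood at 7379 and 6979, and the non-m1A HIST3H2A at 148 and 135.

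m6A is the other common internal methyl mark of mRNA. With genes under the edge included, the enzymes and readers of m1A and m6A were the only list of the 28 with the higher median in non-m1A genes. Of 28 listed genes 18 were in the table, 14 one-peak and 4 non-m1A, all over the edge. The difference was -0.13 ± 0.07 (log2, SD, n = 2), small beside the range of either block, and it rests on 4 non-m1A genes. Over the edge, translation factors at -0.31 and the respiratory chain at -0.20 were lower still, so the list did not stand alone there. Of the m1A writers, HSD17B10 stood at 2532 and 2516, TRMT10C at 470 and 372 and TRMT6 at 178 and 169, all one-peak, and TRMT61B at 282 and 243, non-m1A. RRP8, which methylates rRNA, was at 59.1 and 64.9. The m1A eraser ALKBH3 stood at 164 and 158 and ALKBH1 at 73.5 and 60.9, both one-peak. Among m6A genes, METTL14 of the writer complex was non-m1A at 69.4 and 59.5. WTAP (287 and 276), RBM15 (159 and 137), RBM15B (204 and 194) and KIAA1429 (197 and 202) of the same complex were one-peak. The eraser ALKBH5 was non-m1A at 328 and 343, and FTO one-peak at 119 and 145. The readers YTHDF2 (544 and 442), YTHDF3 (323 and 271) and YTHDC1 (195 and 189) were one-peak, and YTHDC2 (174 and 169) non-m1A. These values are levels of the enzymes' own transcripts, and the list's high and low values overlap between the blocks.

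On the log2 scale the inputs differed more from each other in non-m1A genes, mainly in the dimmest ones. With 32 added to every intensity the order of the blocks turned, to a difference of 0.0126, one-peak minus non-m1A. The median absolute difference between input A and input B was 0.16 on the log2 scale in one-peak genes and 0.24 in non-m1A genes. In quartiles of all genes by level, from dim to bright, it was 0.22, 0.17, 0.16 and 0.13 in one-peak genes, against 0.31, 0.18, 0.16 and 0.13 in non-m1A genes, so that the blocks came close in all but the dimmest quartile. A difference of over 2-fold was found in 9 one-peak genes (0.173%) and 94 non-m1A genes (7.68%), and in 1.6% of all genes. All 94 lay in the dimmest quartile. Over the edge, 3 of 611 non-m1A genes (0.491%) differed by over 2-fold, against the same 9 one-peak genes (0.173%). Input A and input B correlated across genes with a Pearson's r of 0.988 in one-peak and 0.945 in non-m1A genes on the log2 scale, and 0.978 in non-m1A genes over the edge, where genes share the 2 arrays and are not independent. Input A was the brighter one by a median of 0.00 in one-peak genes and 0.05 in non-m1A genes, 0.07 over the edge. Among genes brighter than the median, PSAT1, a serine synthesis enzyme gene, differed most among one-peak genes, at 2187 in input A and 1051 in input B, and WDR11 most among non-m1A genes, at 499 and 277. TRIB3, a stress response gene, stood at 573 and 332. A2M (163 and 326), ALPP (641 and 1155) and MSLN (438 and 773) ran the other way, higher in input B.

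**Figure D5:**
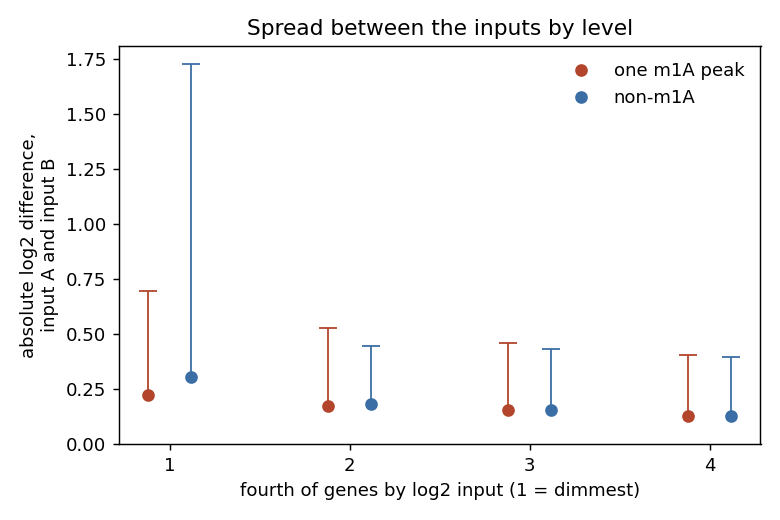
Absolute log2 difference between input A and input B by quartile of genes ordered by level (1, dimmest), in one-peak genes (red) and non-m1A genes (blue). Points are medians and bars reach the 95% quantile. The blocks lie apart in the dimmest quartile, with medians of 0.22 and 0.31, and side by side in the brightest, with 0.13 in both.

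By chromosome, one-peak genes made up 80.9% of the 6401 genes with a RefSeq chromosome. The share was lowest on chromosome 19, at 70.7% of 338 genes, followed by chromosome 4 (71.4% of 220) and chromosome 13 (73.7% of 114). Of the 142 zinc finger genes 50 lay on chromosome 19. Without the list its share was 78.1%, against 81.7% of all genes without the list. Over the edge, with the list, the share was 88.2% on chromosome 19, 84.0% on chromosome 4 and 82.4% on chromosome 13, against 89.5% of all genes. Over the edge without the list, chromosome 19 stood at 90.7%, against 89.7% of all such genes. Of the genes with a RefSeq type, 5144 one-peak and 1210 non-m1A genes were protein-coding, and 21 and 8 were long noncoding RNA genes. The noncoding list by symbol held 13 one-peak and 2 non-m1A genes, led by the snoRNA host gene SNHG7 at 1153 and 818. Genes known only by an open reading frame or clone name were one-peak in 160 of 213 (75.1%), and in 160 of 186 over the edge (86.0%).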

How the data were processed

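Per the labels, poly(A)-selected HepG2 RNA was hybridised to Affymetrix arrays, 2 of input and 2 of supernatant. RMA, without a version, is named in the submitters' processing notes. The deposited gene table gives an intensity per gene, on a linear scale, in columns input A and input B, per the file headers. How these intensities were made, their genome build and the peak calling are not given in the sources used here. The supernatant, ratio and fraction columns and the value table by probe set were not used.

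Intensities were used as deposited, on the log2 scale without a pseudocount, and a gene's level is the mean of both log2 inputs. Values are means ± SD over 2 columns, and their number limits the precision. The design allows no test, and the summaries were tested on simulated data. Symbols were looked up in RefSeq (GRCh38.p14), where 5924 of 6434 were current names, 478 matched 1 older name and 32 none. RefSeq gave the promoters. Protein length, planned, was not analysed here.

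The members and lists were chosen with earlier results of these data known. Genes were named by rule: the 10 brightest and 10 dimmest per block, the brightest and median member of each list, all m1A and m6A genes and cell markers, and the 5 with the largest difference between inputs among genes brighter than the median. Non-m1A members of a list were also named after their values were seen. A few genes that the rule names are not reported here. Alternatives covered each input alone, quantile normalization, log2(intensity + 32), level filters, current symbols and the mean. Added after seeing the data were the limit of 48.9 on the brighter input, other limits, and chromosome 19 without zinc finger genes. The tools were pandas 2.3.3, NumPy 2.4.6 and matplotlib 3.10.9 in Python 3.11.15.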

Additional observations from a re-analysis of the deposited data

How the results depend on the processing

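No paired analysis was possible because the results come from no test and the input columns carry no replicate number. The difference of block medians, 2.31 on the log2 scale, was 2.28 to 2.33 with either input alone and 2.30 after quantile normalization. It was 2.54 with means, 1.71 with 32 added to every intensity, 1.01 over genes with a mean input at least that of the dimmest one-peak gene, and 0.87, 0.68, 0.44 and 0.41 over genes whose brighter input reached 48.9, 64, 128 and 256, and kept its direction in each. The share of one-peak genes brighter than the median gene, 57.5%, was 57.4% to 57.6% with either input alone and 52.7% and 52.2% under the filters on the mean and the brighter input. The share of one-peak genes in the brightest decile minus that in the dimmest, 88.7 percentage points, was 88.5 to 89.0 with either input alone and 24.6 and 17.9 under the same filters. Families with a higher one-peak median numbered 27 of 28 with either input alone and with 32 added, 20 of 24 with the filter on the mean and 19 of 24 with that on the brighter input. Under both filters the respiratory chain turned to -0.20 and translation factors to -0.31, because dim non-m1A members drop out. The difference in spread between the inputs, one-peak minus non-m1A, was -0.08 on the log2 scale, -0.0217 and -0.0268 under the filters, and 0.0126 with 32 added, which compresses the low values. Promoter G and C content differed by 1.67 percentage points, and by 3, 2.67, 0.333 and 2.67 within quartiles of level, where the cause was not tested. No symbol was listed more than once. Protein length was not run.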
